A study of Homo sapiens with 2 samples.

Results

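HOX genes encode homeodomain transcription factors that give the cells of an embryo their position along the head-to-tail axis. In human they stand in 4 clusters, HOXA to HOXD, and paralogue groups numbered 1 to 13 name the genes that match each other across clusters. Genes of low group number are expressed toward the head and those of high number toward the tail, in the order in which they lie on the chromosome. In the female reproductive tract the posterior genes of the HOXA cluster pattern the oviduct, uterus and cervix, and HOXA10 and HOXA11 are known for their roles in the endometrium. Polycomb complexes keep unexpressed HOX genes silent and Trithorax complexes keep expressed ones active.

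The members were all protein-coding genes of the RefSeq GRCh38 table whose symbol is HOXA, HOXB, HOXC or HOXD followed by a digit. There were 40 such entries among 19974 protein-coding genes on chromosomes 1 to 22 and X. They were 39 single genes and the readthrough HOXA10-HOXA9, which covers its neighbours HOXA10 and HOXA9 and is left out of the gene counts. Groups 1 to 3 (8 genes) are called anterior here, groups 4 to 8 (15 genes) central and groups 9 to 13 (16 genes) posterior. HOXA spans 107.1 kb of chromosome 7, HOXB 200.2 kb of chromosome 17 (48528526 to 48728750), HOXC 117.2 kb of chromosome 12 (53938831 to 54056030) and HOXD 103.4 kb of chromosome 2 (176087487 to 176190907), with coordinates on hg38. The table gives gene spans without exons, so summits are placed inside spans or near gene ends and not in exons, introns or UTRs.

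The data were called peaks of chromatin immunoprecipitation with sequencing (ChIP-seq) with antibody sc-101169 against the PHD-finger protein TCF19 in Ishikawa cells, an established endometrial cancer line. The control group was infected with control lentivirus and the other group with lentivirus that overexpresses TCF19, and both were selected with puromycin. Each group was 1 library with no replicate, so no difference between the groups could be tested and none was set against a spread between samples. A peak list shows where reads of the antibody library piled up, and it measures neither the expression of HOX genes nor the amount of TCF19 protein. In such bulk libraries, fewer bound cells and fewer reads per cell cannot be told apart.

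Depth and list length differed between the libraries. The control list held 169542 summits (points of highest pileup) on chromosomes 1 to 22 and X, and the overexpression list 111569. The depth, taken as the genome average that the peak statistics imply, was 57.96 reads in each 10 kb for control and 51.76 with TCF19 overexpression. The TCF19 locus itself had 0 summits in control and 3 with overexpression. The folds are the authors' values, pileup over local background, and that background equalled the library's own reads in 10 kb around the summit wherever these exceeded the genome average. At the other 38.1% of control and 21.1% of overexpression summits it was the genome average itself, which is a floor. A fold is therefore enrichment over the same library's own reads and not over an input.

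The promoters of 4 genes are shown because a summit stood close to their start. RefSeq promoter entries (GRCh38.p14) were found for 20 of the 39 single genes, with 27 distinct starts including the readthrough, and for 19 none was matched. Each of the 4 shown had a summit within 150 bp of its annotated start in at least 1 library. A start inside HOXA3 also met this limit, with a control summit at 110 bp and 13 CG in its 250 bases, and is not shown. At HOXB1 and HOXD8 both libraries had such a summit, at HOXA9 control alone and at HOXA13 the overexpression library alone. Each sequence is the 250 bases before the start, 5′ to 3′ on the gene's strand, with every CG dinucleotide in capitals. The bases after the start are not shown, and the summits of HOXB1 (114 and 23 bp), HOXA9 (98 bp) and HOXD8 with overexpression (27 bp) lay there. Those of HOXD8 in control (121 bp before the start) and of HOXA13 with overexpression (25 bp before it) lay in the printed bases. The sequences are chr17:48531012-48531261 (minus strand) for HOXB1, chr2:176129455-176129704 (plus) for HOXD8, chr7:27165538-27165787 (minus) for HOXA9 and chr7:27200092-27200341 (minus) for HOXA13.
HOXB1: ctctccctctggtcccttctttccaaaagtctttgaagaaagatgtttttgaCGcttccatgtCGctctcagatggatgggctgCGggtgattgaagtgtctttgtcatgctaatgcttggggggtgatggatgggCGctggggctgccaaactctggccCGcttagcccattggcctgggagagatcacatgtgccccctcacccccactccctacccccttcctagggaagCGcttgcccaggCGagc
HOXD8: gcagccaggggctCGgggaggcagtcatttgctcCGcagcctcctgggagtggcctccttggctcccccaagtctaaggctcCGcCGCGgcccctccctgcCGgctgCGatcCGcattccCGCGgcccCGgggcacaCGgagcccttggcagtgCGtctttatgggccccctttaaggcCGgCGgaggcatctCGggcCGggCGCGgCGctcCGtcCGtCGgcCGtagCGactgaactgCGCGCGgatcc
HOXA9: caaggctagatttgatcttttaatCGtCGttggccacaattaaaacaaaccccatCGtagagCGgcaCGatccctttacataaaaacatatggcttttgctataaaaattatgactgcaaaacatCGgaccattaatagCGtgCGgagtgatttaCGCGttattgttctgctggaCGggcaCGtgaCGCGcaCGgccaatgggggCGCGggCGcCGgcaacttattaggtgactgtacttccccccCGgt
HOXA13: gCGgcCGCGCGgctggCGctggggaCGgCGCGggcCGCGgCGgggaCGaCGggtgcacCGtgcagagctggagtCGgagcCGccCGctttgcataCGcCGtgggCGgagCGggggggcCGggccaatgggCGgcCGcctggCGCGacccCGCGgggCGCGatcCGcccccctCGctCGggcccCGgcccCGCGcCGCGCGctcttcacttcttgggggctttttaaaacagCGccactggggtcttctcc

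These promoters differed widely in CG content although each held a summit nearby. HOXB1, the anterior gene that acts in hindbrain patterning, had 7 CG in its 250 bases, HOXA9 had 20, HOXD8 had 28 and HOXA13 had 40. The CG dinucleotide reads the same on both strands. Over the 27 HOX starts the median was 19 CG, against 16 over 22012 protein-coding starts, and 74.1% of HOX starts against 65.4% of all had at least 10. HOX starts with a summit within 1000 bp had a median of 20.5 CG in control (10 starts) and 23 with TCF19 overexpression (15 starts). HOX starts without one had 19 and 16.5. Over all protein-coding starts the contrast was wider, with 20 against 9 CG in control and 21 against 5 with overexpression. HOXD4, whose start held 4 CG, still had an overexpression summit 312 bp downstream.

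The HOX windows together were denser in summits than the DNA around them. Across the cluster windows, which add 20 kb on each side and total 687.9 kb, control had 97 summits and the overexpression library 107. That is 14.1 per 100 kb (exact Poisson 95% interval 11.43 to 17.2) and 15.55 per 100 kb (12.75 to 18.79). The next 500 kb on each side had 7.22 (6.42 to 8.11) and 5.9 (5.17 to 6.7) per 100 kb. These intervals cover counting error only, and those of the windows and of the outer DNA did not overlap in either library. Taken singly, the intervals of the HOXA and HOXD windows lay above those of their own outer DNA in both libraries, and those of HOXB and HOXC overlapped with theirs. The 20 kb flanks alone had 16.25 per 100 kb in both libraries, so the higher density was not limited to the span of the genes.

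HOXC had the most summits per length and HOXB the fewest in both libraries. Between the outermost genes, control had 18.8 summits per 100 kb at HOXC, 15.5 at HOXD, 13.1 at HOXA and 9.49 at HOXB. The overexpression library had 20.5 at HOXC, 17.4 at HOXD, 16.8 at HOXA and 10.5 at HOXB. The intervals of HOXC (11.76 to 28.42 and 13.12 to 30.47) and HOXB (5.71 to 14.82 and 6.49 to 16.03) overlapped, so the order is not separated beyond counting error. With the 20 kb flanks included HOXA lay above HOXD, at 15.6 against 13.9 in control and 17.7 against 17.4 with overexpression. HOXB holds a long gap between HOXB9 and HOXB13. The gap had 7.11 per 100 kb in control and 6.1 with overexpression, and the stretch from HOXB1 to HOXB9 had 12.3 and 15.3.

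Against the genome, 3 windows stood in the upper tail. In tiles of 150 kb the 95th percentile was 18 summits and the 99th 22 in control, and 14 and 19 in the overexpression library. The HOXA window (147.1 kb) held 23 and 26 summits, the HOXC window (157.2 kb) 28 and 30, and the HOXD window (143.4 kb) 20 and 25. HOXA and HOXC passed the 99th percentile in both libraries, and HOXD passed it with overexpression alone. Such density was not particular to HOX. The protocadherin span on chromosome 5 had 16.5 and 15.8 per 100 kb, and the keratin span on chromosome 12 had 16.5 and 13.8.

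**Figure D1:**
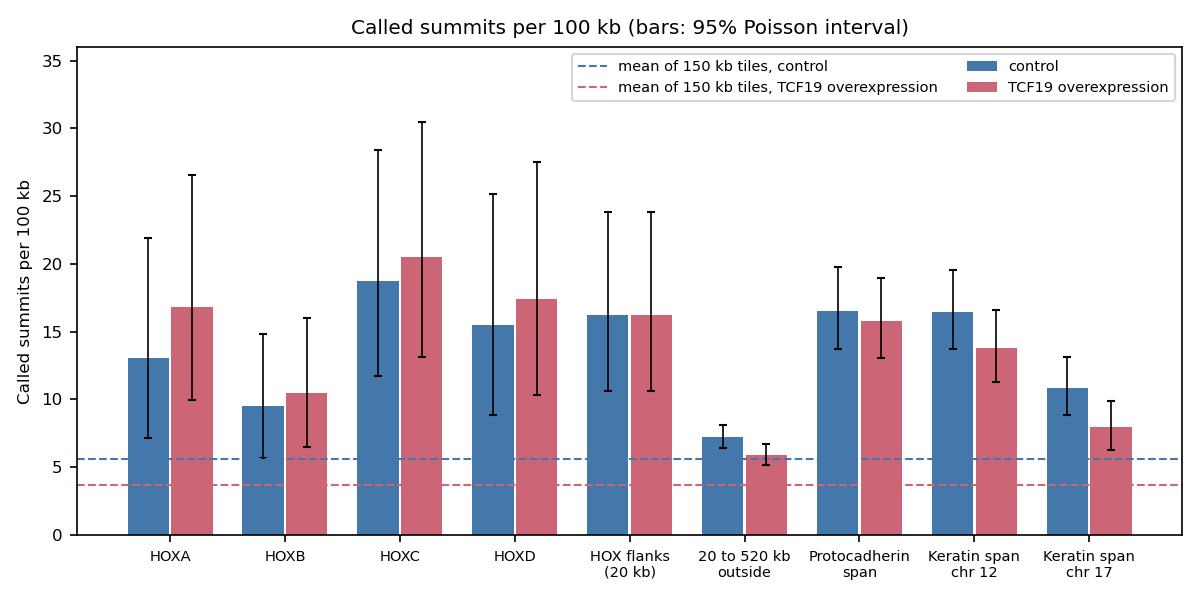
Called summits per 100 kb (vertical axis) for each HOX cluster between its outermost genes, the 20 kb flanks, the 500 kb beyond them and 3 other gene family spans, with control in blue and TCF19 overexpression in red; error bars are exact Poisson 95% intervals and dashed lines the mean of 150 kb tiles. HOXC is highest among the clusters (18.8 and 20.5) and HOXB lowest (9.49 and 10.5), and the 500 kb beyond the flanks lie at 7.22 and 5.9.

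Summit numbers in the HOX windows did not follow the shorter overexpression list. The overexpression list was 0.658 times as long as the control list, while the HOX windows held 1.10 times as many summits (1.13 at HOXA, 1 at HOXB, 1.07 at HOXC and 1.25 at HOXD). The same ratio was 1.09 over all summits whose local read density was at least 3 times the genome average, and 1.25 over all summits within 1000 bp of a protein-coding gene end. When the control list was shortened to the length of the overexpression list, 26 HOX summits were left by fold and 55 by p-value. The shortened list starts at 3.49-fold, a value that 45 of the 107 overexpression summits reach.

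HOX summits stood in DNA with many reads. Local read density is the number of the library's reads in the 10 kb around a summit, its own included, relative to the genome average. It cannot be read below the genome average, so a value of 1 is an upper limit. Its median over HOX window summits was 2.9 times the genome average in control (168 reads per 10 kb, range 58 to 485) and 3.21 times with overexpression (166 reads, 52 to 414). Over all summits the medians were 1.21 and 1.58. At least 3 times the genome average was reached by 46 of 97 HOX summits in control (47.4%) and 63 of 107 with overexpression (58.9%), against 9.5% and 15.7% of all summits. Density could be read only where a summit was called, so stretches without summits have no value.

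HOXC had the highest read density. Its median between the outermost genes was 5.05 times the genome average in control and 5.58 times with overexpression. HOXA had 2.82 and 3.18, HOXB 2.9 and 2.84, and HOXD 2.72 and 3.38. Part of the height of HOXC extended beyond the cluster, since summits in its outer 500 kb had medians of 2.55 and 2.94. Around HOXD the outer summits were at the floor or just above it, 1 and 1.02, around HOXA at 1.04 and 1.78 and around HOXB at 1.69 and 1.87. The keratin span on chromosome 12 had medians of 3.45 and 3.2, and the protocadherin span 1.9 and 2.32.

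At HOXC, HOXD and HOXB the highest read densities stood at or beside the same genes in both libraries. At HOXC the control maximum stood at HOXC9, with 485 reads per 10 kb (8.37 times the genome average). The overexpression library had 410 reads there (7.92 times) and 414 (8 times) at 53997473, between HOXC10 and HOXC9. A further maximum stood at HOXC12 in the overexpression library, with 412 reads (7.96 times), where control had no summit within 2000 bp of the gene's ends. At HOXA the highest control value was 293 reads (5.06 times) at HOXA9, and the highest overexpression value was 355 reads (6.86 times) inside HOXA10, where control had no summit. Between the outermost genes of HOXD both libraries were highest inside HOXD3, with 259 reads (4.47 times) and 278 reads (5.37 times). At HOXB the highest values were 248 reads (4.28 times) and 240 reads (4.64 times), on the higher and the lower side of HOXB8. In the gap before HOXB13 the density reached the floor of 58 and 52 reads, so it was at or below the genome average there.

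**Figure D2:**
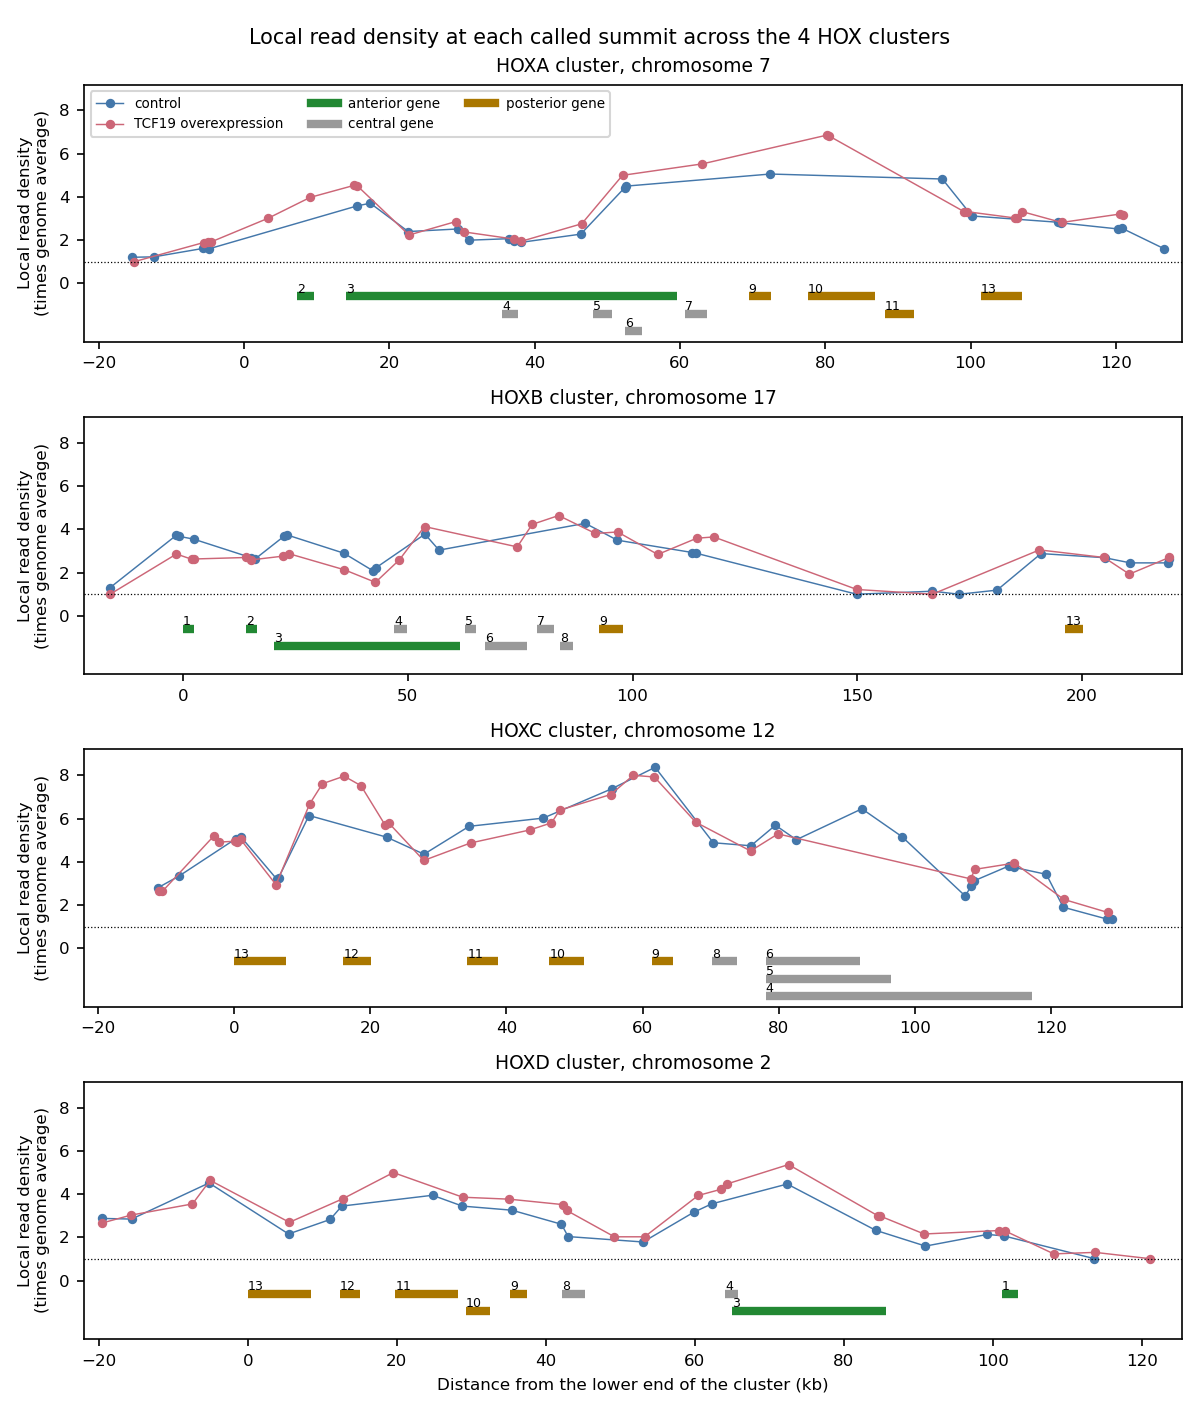
Local read density at each called summit (points, joined by lines; vertical axis in times the genome average, with 1 dotted) against distance from the lower end of each cluster in kb, with control in blue, TCF19 overexpression in red and bars below for anterior (green), central (grey) and posterior (brown) genes by paralogue number. Both libraries rise to about 8 times at HOXC9 and reach the floor of 1 in the gap between HOXB9 and HOXB13.

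Pileups were high and folds low at HOX summits. The median HOX summit had 17 reads in control (range 7 to 31) and 19 with overexpression (6 to 33), above the 12 and 13 of all summits. Its fold was lower than usual, with medians of 3.11 and 3.2 against 3.87 and 4.05. Control HOX summits below 2 times the genome average had a median fold of 4.19, and those from 4 to 6 times had 2.38. The overexpression library had 4.2 and 2.86 in the same ranges. The pileup that a call needed rose with the background. It was 6 reads in both libraries at the genome average, 15 and 14 reads at 4 times, and 24 and 23 reads at 8 times.

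**Figure D3:**
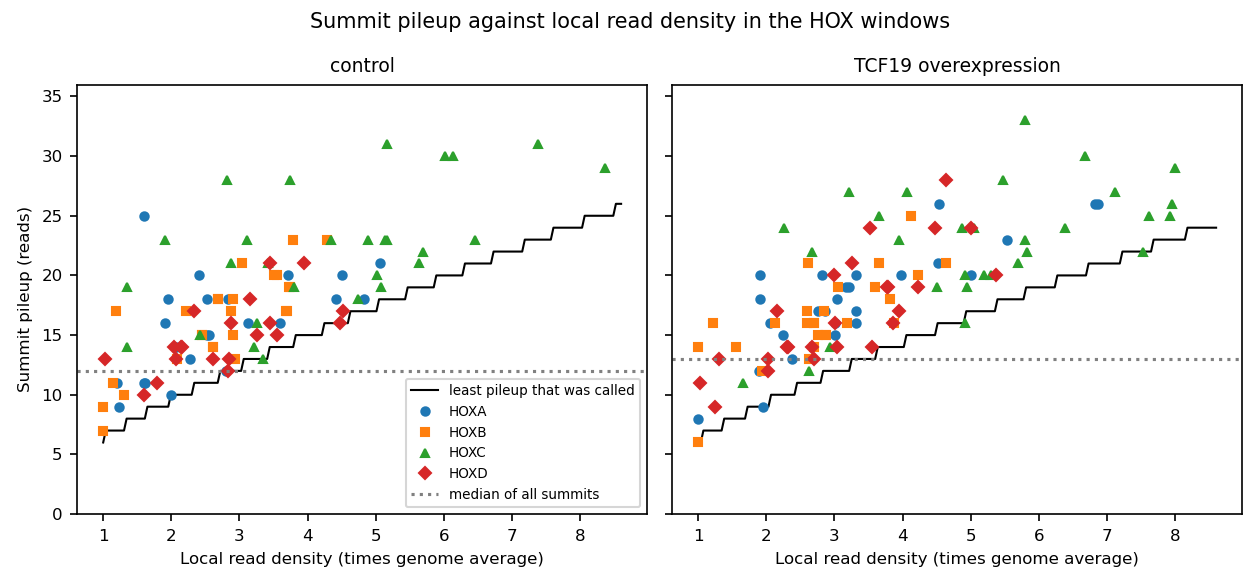
Summit pileup in reads (vertical axis) against local read density in times the genome average for HOX window summits, by cluster (HOXA circles, HOXB squares, HOXC triangles, HOXD diamonds) in control (left) and with TCF19 overexpression (right); the black steps are the least pileup that was called and the dotted line the median pileup of all summits. Most points beyond 5 times the genome average are HOXC summits, and the threshold climbs from 6 reads at 1 time to 24 and 23 reads at 8 times.

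Gene ends of the HOX family were called about as often as those of other genes. A summit lay within 1000 bp of either end of 17 of 39 HOX genes in control (43.6%, Wilson 95% interval 29.3 to 59.0), against 54.6% of all protein-coding genes. In the overexpression library it was 23 of 39 (59.0%, 43.4 to 72.9), against 64.8%. Each interval includes the share of all genes. Both libraries had a summit at 14 genes (35.9%, against 48.8% of all genes) and the overexpression library alone at 9 (23.1%, against 16.0%). Of those 9 gene-end intervals 1, at HOXD3, overlapped a control interval. Control alone had 3 (7.69%, against 5.84%; 0 overlapped) and neither library had 1 at 13 (33.3%, against 29.4%). The overlap counts were not set against the same share over all genes, so whether they are usual was not tested. The control count fell to 2 when its list was shortened to the overexpression length by fold, leaving HOXA4 and HOXD8, and to 6 by p-value. In those shortened lists 34.4% and 38.9% of all genes were called. With annotated starts alone, which were available for 20 genes, 9 and 14 had a summit within 1000 bp, where 54.4% and 66.4% of genes with an annotated start did.

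**Figure D4:**
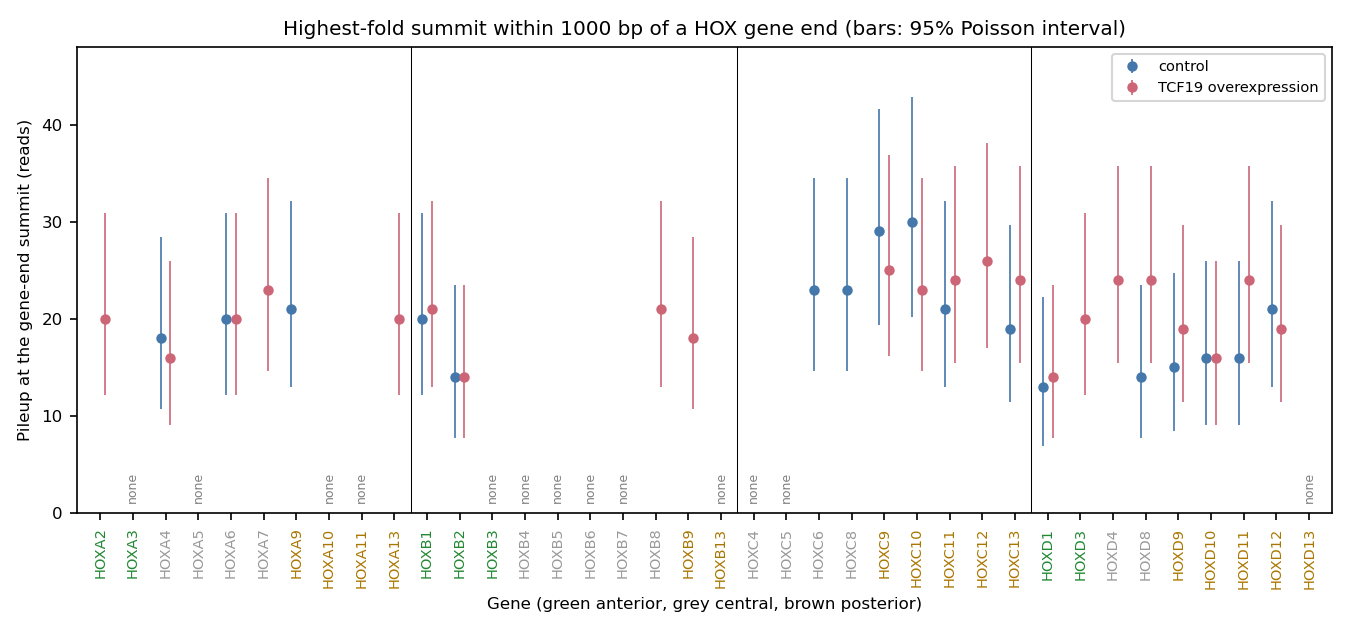
Pileup in reads (vertical axis, exact Poisson 95% intervals) of the highest-fold summit within 1000 bp of a HOX gene end, for the HOX genes in 4 blocks by cluster (1 gene is not shown), with control in blue and TCF19 overexpression in red. A gene with 1 point had a summit in that library alone, and the word none marks the 13 genes with a summit in neither, 6 of them in HOXB.

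In HOXA, 3 of 11 genes had a gene-end summit in control and 6 of 11 in the overexpression library. Among the cluster's gene ends HOXA4 had the highest fold in both libraries. It had 18 reads (10.7 to 28.4) and a 4.65-fold value in control and 16 reads (9.1 to 26.0) and 4.33-fold with overexpression. HOXA6 had 20 reads and 2.58-fold in each library. HOXA13, the most posterior gene, which patterns the limb tips and the lower genital tract, had no control summit. With overexpression it had 20 reads (12.2 to 30.9) and 3.65-fold 25 bp from its annotated start. HOXA2 had 20 reads (3.14-fold) and HOXA7 23 reads (2.7-fold) in the overexpression library alone. HOXA9, a gene known for its role in leukaemia, showed the opposite, with 21 reads (13 to 32.1; 2.44-fold) in control and no summit within 6337 bp in the overexpression library.

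The 4 HOXA genes without a gene-end summit were HOXA3, HOXA5, HOXA10 and HOXA11. HOXA3 has a long span that runs past HOXA4, HOXA5 and HOXA6, and 11 control and 9 overexpression summits lay inside it. Annotated starts within HOXA3 had summits at 110 bp in control (18 reads) and 224 bp with overexpression (17 reads). HOXA10 had no summit inside its span in control and 2 with overexpression, each of 26 reads (17 to 38.1), and the nearer stood 796 bp downstream of an annotated start. HOXA11 had none inside its span in either library. The readthrough HOXA10-HOXA9 had no summit at its ends and 1 control and 2 overexpression summits inside.

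HOXB had the fewest called gene ends, 2 of 10 in control and 4 of 10 with overexpression. HOXB1 had 20 reads (12.2 to 30.9; 3.17-fold) in control and 21 reads (13 to 32.1; 4.66-fold) with overexpression. The overexpression summit nearest to that control summit, 91 bp away, had 13 reads (6.9 to 22.2; 2.95-fold). HOXB2 had 14 reads in each library, at 2.93-fold and 3.08-fold. These were different peaks, at the higher end in control and at the lower end with overexpression. Neither overlapped a peak of the other library. Just beyond the limit, 1060 and 1105 bp from the end, the libraries did share a peak inside HOXB2. It had 18 reads (3.61-fold) in control and 16 reads (3.62-fold) with overexpression. HOXB8 (21 reads, 2.89-fold) and HOXB9 (18 reads, 2.95-fold) were called with overexpression alone. Beyond the limit the libraries shared a peak inside HOXB9. Its summits had 20 reads (3.21-fold) at 1225 bp from the end in control and 16 reads (2.6-fold) at 1156 bp with overexpression. HOXB3 to HOXB7, a row of neighbours, and HOXB13, a prostate and colon marker, had none in either. The closest summit stood 1024 bp from an end of HOXB7, with overexpression. Within the span of HOXB3 there were 7 control and 6 overexpression summits. HOXB5 and HOXB7 had none inside their spans in either library, and HOXB4 and HOXB6 had 1 each with overexpression alone. Control had no summit at all between 48585486 and 48617991. The summits nearest to the midpoints of HOXB3 to HOXB7 had densities of 2.09 to 4.28 times the genome average in control and 1.55 to 4.23 with overexpression. They stood up to 14882 bp (HOXB6, control) and 10263 bp (HOXB5, overexpression) from the midpoint.

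HOXC had 6 of 9 gene ends called in control and 5 of 9 with overexpression, and was the only cluster where the control count was higher. Its pileups were the highest of the family. HOXC10 had 30 reads (20.2 to 42.8; 2.94-fold) and 23 reads (14.6 to 34.5; 2.59-fold). These were different peaks, with summits 1204 bp apart, and neither overlapped a peak of the other library. HOXC9 had 29 reads (19.4 to 41.6) and 25 reads (16.2 to 36.9), at 2.11-fold in both, the lowest folds among the called HOX gene ends. HOXC11 had 21 reads (2.22-fold) and 24 reads (3.14-fold), and HOXC13, a gene of hair and nail development, had 19 reads (2.22-fold) and 24 reads (3.05-fold). The 2 HOXC13 values are of different places. The control summit nearest to that overexpression summit, 35 bp away, had 31 reads (21.1 to 44.0; 3.49-fold). It lay 1015 bp from the gene's end, just beyond the limit. The counting intervals of these pileups overlapped between the 2 libraries at each of these genes.

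The remaining HOXC genes were called in 1 library or none. HOXC8 and HOXC6 had 23 reads each in control alone, at 2.75-fold and 2.14-fold. HOXC12 had 26 reads (17 to 38.1; 2.18-fold) in the overexpression library alone. HOXC4, HOXC5 and HOXC6 share their lower end in the gene table, at 54016888, and the nearest summits to it stood at 1451 bp in control and 1822 bp with overexpression. HOXC4 has a long span, and 9 control and 4 overexpression summits lay inside it.

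HOXD had 6 of 9 gene ends called in control and 8 of 9 with overexpression. HOXD8 had 14 reads (7.7 to 23.5; 3.55-fold) in control and 24 reads (15.4 to 35.7; 4.15-fold) with overexpression. These were the highest folds within 1000 bp of the cluster's gene ends in each library. Away from gene ends, summits between the outermost genes reached 3.84-fold and 4.4-fold. HOXD12 had 21 reads (3.41-fold) and 19 reads (3.12-fold), HOXD9 had 15 reads (2.6-fold) and 19 reads (3.13-fold), and HOXD1 had 13 reads (3.27-fold) and 14 reads (3.5-fold). HOXD10 and HOXD11 lie so close that 1 summit of 16 reads was near both genes in each library. In the overexpression library HOXD11 had a further summit of 24 reads (3.07-fold) 273 bp from its start. HOXD4 (24 reads, 3.38-fold) and HOXD3 (20 reads, 3.98-fold) were called with overexpression alone. At HOXD3 both libraries had a peak, since a control summit of 17 reads (3.84-fold) stood 1329 bp from the end and its interval overlapped the overexpression interval. HOXD13 had none at the ends of its span, but its annotated start lies inside the span, and summits of 14 and 13 reads stood 224 bp and 336 bp downstream of it.

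The classes by position did not keep 1 order. In control 9 of 16 posterior, 5 of 15 central and 3 of 8 anterior genes had a gene-end summit. With overexpression it was 11 of 16, 6 of 15 and 6 of 8. The Wilson intervals overlapped in control (33.2 to 76.9, 15.2 to 58.3 and 13.7 to 69.4%) and with overexpression (44.4 to 85.8, 19.8 to 64.3 and 40.9 to 92.9%). The order turned with the distance allowed. Within 2000 bp, 11 of 16 posterior, 9 of 15 central and 5 of 8 anterior genes had a summit in control, against 65.2% of all genes. With overexpression it was 11 of 16, 14 of 15 and 8 of 8, against 72.6%, so the posterior class was then the lowest. With the control list shortened by fold, 2 central and 0 anterior or posterior genes remained called.

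Cluster and position could not be separated among the posterior genes. The 8 posterior genes called in both libraries were HOXC9, HOXC10, HOXC11, HOXC13, HOXD9, HOXD10, HOXD11 and HOXD12. None of the posterior genes of HOXA (HOXA9, HOXA10, HOXA11, HOXA13) or HOXB (HOXB9, HOXB13) was called in both. Neighbouring genes share windows and reads, so they are not independent observations. By paralogue group, the 3 genes of group 5 had no gene-end summit in either library. Read density did not rise from anterior to posterior in a row. The nearest summit to a gene's midpoint had a median of 2.39 times the genome average at anterior, 4.28 at central and 3.72 at posterior genes in control, and 2.6, 4.48 and 3.87 with overexpression. Some of these summits stood far from the midpoint, such as 14882 bp at HOXB6 in control and 10537 bp at HOXC4 with overexpression. Neighbours could also share 1 summit, as HOXA9 and HOXA10 did in control. The medians therefore do not measure density at the genes themselves.

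Many HOX summits lay away from gene ends. In control 21 of 97 summits were within 1000 bp of a HOX gene end, 30 farther inside a HOX span, 18 inside a noncoding gene alone and 26 between genes. With overexpression these were 31, 28, 18 and 27 of 107. Counting any protein-coding gene, 22.7% (15.5 to 32.0) and 29.9% (22.1 to 39.2) of HOX window summits were at a gene end, against 8.21% and 15.6% of all summits. The clusters are dense in genes, and this share was not set against other DNA of equal gene density. The highest fold in any window was outside the clusters' gene spans, 7.35-fold with 25 reads (16.2 to 36.9) at 27088185 in control, in a flank of HOXA. The overexpression library had 20 reads (12.2 to 30.9; 5.63-fold) at 27088407.

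More HOX than average control intervals had a counterpart in the other library. Of 91 control intervals in the windows, 60 overlapped an overexpression interval by at least 1 bp (65.9%, Wilson 55.7 to 74.8), against 43.0% of all control intervals. Of 93 overexpression intervals, 58 overlapped a control interval (62.4%, 52.2 to 71.5), against 67.4% of all. Among intervals of at least 3 times the genome average in any part of the genome the shares were 50.4% and 38.9%. The clusters were alike in the control list, with 61.9% at HOXA, 64.0% at HOXB, 64.0% at HOXC and 75.0% at HOXD. Requiring the summits themselves to lie within 100 bp lowered the shares to 30.8% and 30.1%.

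For most HOX intervals of 1 library alone a call in the other library was not near certain. For each, the chance of a call in the other library at equal occupancy was computed from its depth and the same local background. The median was 0.77 for the 31 control intervals and 0.92 for the 35 overexpression intervals, and it reached 0.95 for 3 and 9. These values can be too high, since summits are picked as local maxima. They were not set against all intervals of 1 library alone, so whether 3 and 9 are usual was not tested. The 3 in control were a summit of 17 reads at 48709592 between HOXB9 and HOXB13 (6.24-fold), 1 of 21 reads at 48585486 inside HOXB3 and 1 of 30 reads at 53984258 near HOXC10. Among the 9 with overexpression were the summits at HOXA2, HOXA13, HOXD4 and HOXD11 named above and 1 of 17 reads inside HOXB4. The highest pileup among them was 28 reads (18.6 to 40.5) at 53982259, between HOXC11 and HOXC10.

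Where both libraries had a summit at the same place, the HOX pileups were similar. In 28 pairs of HOX summits within 100 bp of each other, the log2 ratio of overexpression to control pileup, each relative to its genome average, had a median of 0.06 (SD over pairs 0.39, range -0.68 to 0.98). It was above 0 in 14 of 28 pairs. Over all 41018 pairs the median was 0.15, with 58.7% above 0. With pairs within 200 bp, a distance chosen after seeing the data, the HOX median was 0.15 (49 pairs), the same as over all 59697 such pairs. Over the 4668 pairs at protein-coding gene ends the median was 0.34, with 77.9% above 0. The HOX gene ends gave 5 such pairs, at HOXA4 (2 pairs), HOXB1, HOXC9 and HOXD10, with a median of -0.07 and 1 pair above 0. With 5 pairs and 1 library per group this is a description.

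Single pairs differed by less than their counting intervals allow to separate. The largest rise was 9 reads (4.1 to 17.1) in control against 16 (9.1 to 26.0) with overexpression at 48678363 in the HOXB9 to HOXB13 gap. At 27205457, beyond HOXA13 and inside the noncoding gene HOTTIP, it was 12 reads (6.2 to 21.0) against 20 (12.2 to 30.9). The largest fall was at HOXA4, 16 reads (9.1 to 26.0) against 9 (4.1 to 17.1) at 27131118. The intervals overlapped in each. By cluster the median log2 ratio was 0.27 at HOXA (5 pairs), -0.08 at HOXB (10 pairs), 0.15 at HOXC (11 pairs) and 0.05 at HOXD (2 pairs).

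**Figure D5:**
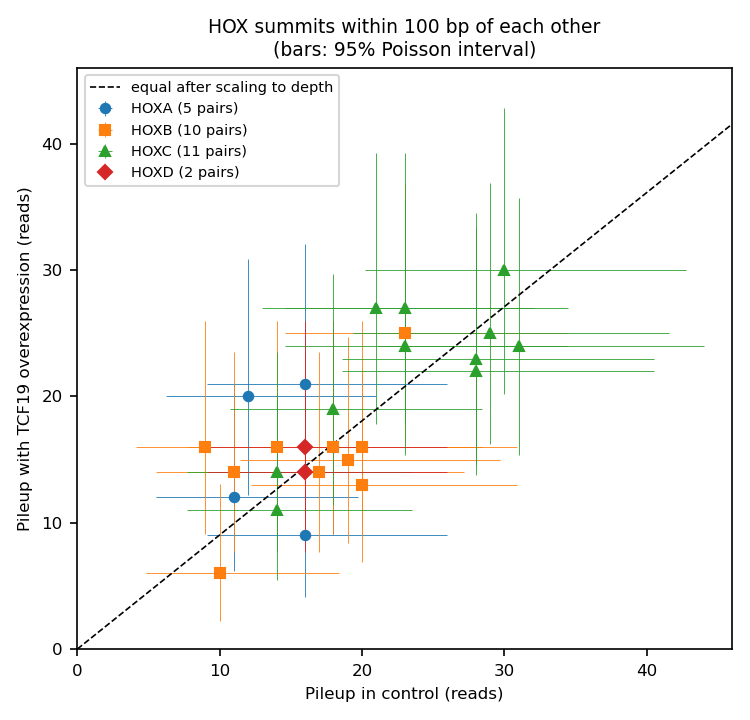
Pileup in reads with TCF19 overexpression (vertical axis) against control (horizontal axis) for the 28 pairs of HOX summits within 100 bp of each other, by cluster, with exact Poisson 95% intervals; the dashed line marks equal pileup after scaling to the genome averages. The points scatter on both sides of the line, 14 of 28 above it, and HOXC holds the highest pileups.

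The clusters also hold noncoding genes, and of 15 listed 5 had a gene-end summit in control and 10 with overexpression. Over all 20088 lncRNA and miRNA genes the shares were 32.5% and 30.8%. The counts hold for the listed genes alone, of which none was called in control alone. Among lncRNA genes of the windows that were not listed, HOXA11-AS, HOXBLINC and FLJ12825 were called in control alone. HOXB-AS4, LINC03057 and HOXD-AS2, also not listed, were called with overexpression alone. The listed genes lie among the HOX genes, and some share a summit with them. HOTAIR, a long noncoding RNA of the HOXC cluster known for its ties to Polycomb, had the highest of these. It had no gene-end summit in control, where the nearest stood at 1061 bp, and 33 reads (22.7 to 46.3; 3.66-fold) with overexpression 756 bp from its lower end. The control interval there (23 reads) overlapped the overexpression interval, so both libraries had a peak at the place. The same held for HOXA-AS3, with 13 reads at 1012 bp in control and 17 reads with overexpression. HOTTIP and HOXB-AS3 (20 reads each) were called with overexpression alone. The HOTTIP summit is the HOXA13 summit, so this pair of genes is 1 observation. Both libraries had a summit at HOXA-AS2 (18 and 17 reads), HOXB-AS1 (18 and 16), HOXC-AS1 (29 and 25, the HOXC9 summits), HAGLR (13 and 20) and the microRNA gene MIR10B (15 and 19). The HAGLR values are of different places at opposite ends of the gene. They are the HOXD1 summit in control and the HOXD3 summit with overexpression.

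Some microRNAs of the clusters are shown by their mature sequences because 3 of the loci share a seed. The seed (bases 2 to 8, the part that pairs with targets) is in capitals, and the sequences are those of RefSeq. For miR-10b no entry was matched for the arm that is shown for miR-10a, so the opposite arm is given. The printed seeds of miR-10a and miR-10b are therefore of different arms. They do not show whether these microRNAs share a seed.
hsa-miR-196b-5p (HOXA): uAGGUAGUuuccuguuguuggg
hsa-miR-196a-5p (HOXB and HOXC): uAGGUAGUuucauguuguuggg
hsa-miR-10a-5p (HOXB): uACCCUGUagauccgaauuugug
hsa-miR-10b-3p (HOXD): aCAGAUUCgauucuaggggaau

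The shared seed AGGUAGU is made from loci in HOXA, HOXB and HOXC, and miR-196 is known to target HOX messenger RNAs. None of MIR196B, MIR196A1 and MIR196A2 had a summit within 1000 bp in either library. MIR196A2 lies in the densest part of HOXC, and its nearest summits, at 2495 bp and 2308 bp, had densities of 7.38 and 7.11 times the genome average. MIR10A had its nearest summits at 2405 bp and 2308 bp. MIR10B, next to HOXD4, had a summit at 571 bp in control (15 reads, 2.42-fold) and 616 bp with overexpression (19 reads, 2.84-fold). These 2 summits lay on opposite sides of the gene. MIR7704, at the start of HOXD1, had summits at 83 bp and 241 bp, which are those of HOXD1.

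Genes that act with or upstream of HOX proteins were read from further lists. The TALE homeodomain cofactors, which bind DNA beside HOX proteins, had gene-end summits at 4 of 9 genes in control and 8 of 9 with overexpression. Over all genes the shares were 54.6% and 64.8%, against which the counts of all the lists below are to be read. PBX4, MEIS1, MEIS3 and PKNOX1 were called with overexpression alone, as 16.0% of all genes were, and their nearest control summits stood at 1203 to 2866 bp. MEIS2 had the highest fold, with 17 reads (9.9 to 27.2; 6.42-fold) in control and 13 reads (6.9 to 22.2; 4.91-fold) with overexpression. Of 11 genes of Polycomb repressive complex 1, which compacts silent HOX clusters, 5 had a gene-end summit in control and 8 with overexpression. PHC2 had 14 reads (5.57-fold) and 19 reads (5.98-fold), BMI1 had 18 reads with overexpression alone (nearest control summit at 1046 bp), and CBX8 had 24 reads in control alone.

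Trithorax proteins and retinoid receptors activate HOX genes. Of 9 Trithorax and retinoid receptor genes, 4 had a gene-end summit in control and 5 with overexpression. KMT2A, the methyltransferase that keeps HOX genes active, had 15 reads (8.4 to 24.7; 3.04-fold) in control and 29 reads (19.4 to 41.6; 5.05-fold) with overexpression, and the intervals overlapped. RARB had 16 reads (5.29-fold) and 15 reads (5.03-fold). The related ParaHox and EVX homeobox genes had 5 of 8 in both libraries, CDX4 with 11 reads (4.55-fold) and 14 reads (4.52-fold). The DLX homeobox genes had 2 of 6 in control (DLX3 and DLX5, 18 reads each) and 0 of 6 with overexpression. The called summits nearest to their midpoints had a median density of 4.3 and 5 times the genome average. Some of these summits stood far from the gene. With overexpression DLX1 and DLX2 took their value from 1 summit, 20595 bp and 7016 bp from their midpoints.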

How the data were processed

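TCF19 ChIP-seq of 1 control and 1 TCF19-overexpressing Ishikawa library was used as 2 deposited peak lists on hg38. Per the submitters' processing notes, reads were aligned with BWA 0.7.12 and peaks called with MACS2 2.1.0; for parameters, duplicate handling and any input, the sources used here give nothing. The authors deposited, per summit, a score (not used beyond its check), a fold (ratio of pileup to background), a −log10 p-value and a −log10 q-value, which starts at 1.3011. Whole-read pileups were solved from fold and p-value (misfit at most 0.001) and recovered at 99.998% and 99.997% of summits. Above the floor, 100% of the backgrounds equalled a whole number of reads per 10 kb, with a tolerance of 0.05 reads and fragments of 273 and 276 bp. Analyses used Python 3.11.15, numpy 2.4.6, pandas 2.3.3 and scipy 1.17.1, and were tested on simulated data.

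Positions are counted from 1. A gene was called with a summit within 1000 bp of either end of its RefSeq GRCh38.p14 span, since strand was known only for genes with a promoter entry. Where several summits qualified, the one of highest fold is given. The summits given for a gene in the 2 libraries can therefore stand at different places. Intervals are exact Poisson (pileups, counts) or Wilson (shares) at 95% and cover counting error only, as reads may hold PCR copies. With 1 library per group no test was run. HOX genes with a gene-end summit could be named, with full values for the highest folds per cluster and library. In the other lists at most 3 genes were named by highest fold, and further genes (PBX4, MEIS1, MEIS3, PKNOX1, BMI1, CBX8, DLX3, the noncoding genes) were named after their values were seen, as those called in 1 library alone. The values of 1 HOX gene are not reported here, though it is in the counts. The members and lists were chosen with earlier results of these data known. Alternatives changed the window, flank, q-value, list length, overlap rule and use of annotated starts.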

Additional observations from a re-analysis of the deposited data

How the results depend on the processing

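Of 61 alternative settings, 14 were marked as moving the value, 47 as not moving it and 0 as reversing it. The 47 include sizeable changes, such as 17 to 25 genes in control and 23 to 33 with overexpression within 2000 bp. Counts, shares and densities cannot change sign, so a reversal could show only in the log2 ratio of pileups. The order of the position classes did turn. List length mattered most: with the control list shortened to the overexpression length by fold, control had 26 HOX window summits and 2 genes with a gene-end summit (0 anterior, 2 central, 0 posterior), and by p-value, an alternative chosen after seeing the data, 55 summits and 6 genes. HOX summits have low folds in dense DNA, and 71 of the 97 control summits were left out by fold and 42 by p-value. Annotated starts alone, available for fewer genes, gave 9 genes in control and 14 with overexpression. Within 2000 bp of gene ends, 5 anterior and 9 central genes were called in control and 14 of 15 central against 11 of 16 posterior genes with overexpression. Summits within 100 bp gave shares of 30.8% and 30.1% in place of interval overlap. No paired analysis was possible because each group has 1 library, and leaving out a replicate was not possible for the same reason. The depth limits what could be called: at 8 times the genome average a summit needed 24 reads in control and 23 with overexpression.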
